A study of Mus musculus with 12 samples.

Results

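The translation initiation and elongation factors are the genes whose symbols begin with Eif1 to Eif6, Eef1 or Eef2 in the mouse expression table, leaving out the eIF2 kinases (Eif2ak), Eef1e1 and pseudogenes. This rule, which uses names and no measured value, found 56 genes among the 12151 in the table. mRNA was sequenced from pre-B cells of mouse bone marrow (mice of 6 to 12 weeks) that were grown in IL-7 and then transformed with BCR-ABL1, the fusion kinase of Philadelphia chromosome-positive leukemia. All cells carried Ctnnb1Ex3fl/+, a single Ctnnb1 copy whose exon 3 can be removed by Cre, which takes away the phosphorylation sites that mark β-catenin for degradation and so stabilizes the protein. The cells had received Cas9 with a non-targeting guide (sgNTC, here WT) or with guides against Ikzf1 and Ikzf3 (here KO), which encode the lymphoid transcription factors Ikaros and Aiolos, and were grown as colonies from single cells. They then received a GFP vector for ERT2 alone or for Cre-ERT2, which 4-OHT activates, and were sorted for GFP. Either vector in either background made 4 groups of 3 libraries, named here by vector and background (ERT2 WT and so on). The time after 4-OHT is stated in the labels for ChIP-seq only, as 1 day, and nothing says how many colonies the libraries came from.

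Translation starts when eIF4F (the cap-binding eIF4E, the scaffold eIF4G and the helicase eIF4A) brings an mRNA to a small ribosomal subunit that carries eIF3, eIF1, eIF1A and the eIF2-GTP-initiator tRNA ternary complex. The subunit scans to a start codon, eIF5 triggers GTP hydrolysis on eIF2, eIF5B joins the large subunit, and eIF2B reloads eIF2 with GTP. eEF1A, recharged by the eEF1B subunits, then delivers aminoacyl-tRNAs, eEF2 moves the ribosome along, and eIF5A, which carries the modified residue hypusine, helps ribosomes over slow stretches. In cancer cells many of these genes are known targets of the transcription factor Myc, which binds the E-box CACGTG, and the eIF4E-binding proteins are brakes that mTORC1 releases.

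The members were assigned by textbook role: 11 to start codon selection and the ternary complex, 5 to eIF2B, 14 to eIF3, 10 to cap binding and scanning, 4 to eIF4E partners, 7 to elongation (Eif5a and Eif5a2 included), 1 to modification of elongation factors (Eef2k) and 4 to subunit joining and other roles. Normalized log2 values of members averaged between 3.56 (Eif4ebp3) and 18.5 (Eef1a1), and Eif4ebp3 alone averaged under 8. The median SD of a member within a group of 3 libraries was 0.028. The depth behind these values is unknown because the table holds no counts, and nothing says whether the 3 libraries of a group came from separate cultures or colonies, so that p-values measure only the spread between these libraries, which may be technical. In bulk RNA, fewer cells of a type and less RNA per cell cannot be told apart.

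The libraries were close to each other: the median over all genes lay between 9.06 and 9.11, and the robust SD of a library from its group mates was 0.044 to 0.071. ERT2 WT replicate 3 was below both of its mates for 39 of the 56 members, the highest such number of any library. ERT2 WT replicate 1 was above both of its mates for 32, also the highest such number. All 11 pre-B cell markers were in the table, at summed unlogged shares of 0.482% to 0.495% of the total in WT and 0.365% to 0.384% in KO libraries. Of the 7 myeloid markers only Lyz2 and Itgam and of the 6 T cell markers only Lck were in the table, with none of the 6 erythroid and 5 stromal markers. In the order ERT2 WT, Cre-ERT2 WT and then both KO groups, Lyz2 averaged 7.41, 7.38, 8.40 and 8.61, Itgam 4.66, 4.70, 4.51 and 4.52, and Lck 8.88, 9.68, 7.43 and 7.75. The pre-B markers did not all follow their sum: Cd79a went from 15.10 to 14.31 between ERT2 WT and ERT2 KO, while Rag1 went from 11.47 to 11.80 and Rag2 from 9.58 to 9.96. Ikzf1 mRNA went against a simple loss, with values of 13.66 to 13.75 in WT and 14.56 to 14.76 in KO libraries, whereas Ikzf3 was at 11.59 to 11.93 in WT and 10.97 to 11.34 in KO libraries. KO therefore stands here for the libraries labelled so.

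Promoter sequences, from 250 bases before to 50 after each transcription start, were found in RefSeq (GRCm38.p6) for 43 of the 56 members. The E-box CACGTG, which reads the same on both strands, occurred in those of 12 of the 43 (27.9%), against 12.1% of the 8566 genes of the expression table that had an entry and 8.09% of all 27025 genes with one. These 12 were Eef2, Eef2k, Eif1b, Eif3a, Eif3f, Eif3k, Eif4a1, Eif4e, Eif4g1, Eif4h, Eif5a and Eif5a2. Among members with an entry, 4 of the 10 that fell with stabilized β-catenin in WT held one, and so did 8 of the 33 that were not called there. TGGGAA, a core that Ikaros binds, was present on either strand in 13 of 43 members (30.2%), in 26.3% of the genes of the table and in 28.3% of all genes, and the TCF/LEF motif ATCAAAG was in 0 of 43, against 2.94% and 4.29%. A match of letters is not a bound site, and no match covers only this window. The E-box stretches are shown for the 4 members with an E-box that fell in WT and for Eef2k, which fell in KO, with the E-box in capitals and each read 5′ to 3′ on the strand of its gene. They lie upstream of the start, at chr11:69672557-69672662 (minus strand, E-box beginning 189 bases before the start) for Eif4a1, chr16:20672661-20672690 (plus, 54 bases) for Eif4g1, chr5:134639488-134639517 (minus, 96 bases) for Eif4h, chr11:69921405-69921510 (minus, 74 and 185 bases before alternative starts) for 1 of the E-boxes of Eif5a and chr7:120842750-120842830 (plus, 31 bases) for Eef2k. Those of Eif4a1, Eif4g1, Eif5a and Eef2k met no annotated exon (GENCODE vM21), and that of Eif4h touched 1.
Eif4a1: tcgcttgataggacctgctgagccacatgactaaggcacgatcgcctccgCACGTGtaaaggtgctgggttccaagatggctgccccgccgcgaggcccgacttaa
Eif4g1: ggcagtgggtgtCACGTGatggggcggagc
Eif4h: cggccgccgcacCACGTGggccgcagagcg
Eif5a: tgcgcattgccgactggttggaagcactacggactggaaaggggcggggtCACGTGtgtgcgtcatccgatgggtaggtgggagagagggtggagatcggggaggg
Eef2k: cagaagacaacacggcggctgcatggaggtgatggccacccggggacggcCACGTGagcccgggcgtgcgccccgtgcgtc

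With stabilized β-catenin in WT cells, 16 members fell and 1 rose, the falls being small, at 0.087 to 0.18 on the log2 scale. The 16 were Eif4a1, Eif4g1 and Eif4h of cap binding and scanning, the eIF4E partner Eif4ebp1, 4 subunits of eIF3, the eIF2 and eIF2B subunits Eif2s1, Eif2b3 and Eif2b5, the start codon factor Eif1a, Eef1d, Eef1g and Eif5a of elongation, and Eif6, which keeps free large subunits from joining. The 17 calls were made with limma across all genes at an adjusted p under 0.05, which called 11.9% of the 12151 genes, 5.93% as higher and 5.95% as lower. Among the 4218 genes between the 10th and 90th percentile of the member means, 18.3% were called. The median change of the 56 members was -0.058, against 0.000022 for all genes, and 44 of the 56 were negative. The members' median level was 12.39, 12.34 and 12.29 in the ERT2 WT libraries and 12.28, 12.31 and 12.27 in Cre-ERT2 WT, so these library medians overlapped. All members were measured in the same libraries, so that counts of signs, here and below, are not counts of independent observations. The 3 Cre-ERT2 libraries lay apart from the 3 ERT2 libraries for 27 members, 25 of them lower, where 31.1% of all genes did (15.2% higher and 15.9% lower). Without ERT2 WT replicate 1, Cre-ERT2 WT replicate 1 or Cre-ERT2 WT replicate 3 the count was 9, and without ERT2 WT replicate 2 it was 10. Of the 17, 7 passed at an adjusted p under 0.01, namely Eif1a, Eif2b3, Eif3j1, Eif4a1, Eif4g1, Eif5a and Eef1d.

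**Figure D1:**
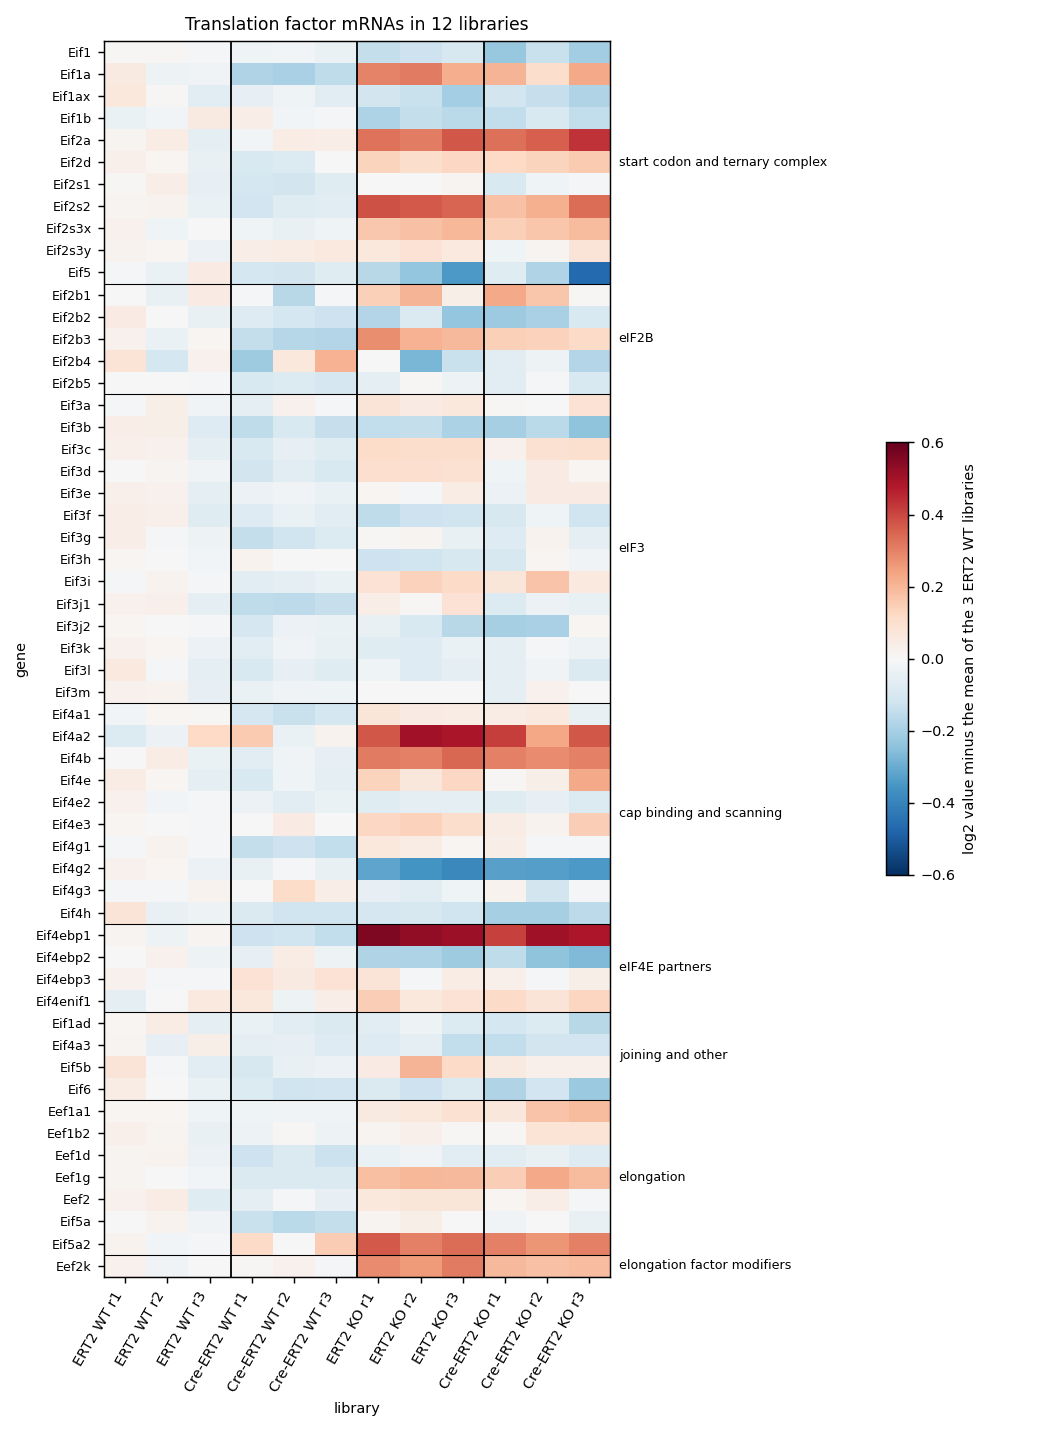
Heat map of the 56 members (rows, by role) in the 12 libraries (columns), as the log2 value minus the mean of the 3 ERT2 WT libraries, red for higher and blue for lower. Pale blue runs through most rows of the Cre-ERT2 WT columns (median change -0.058), and Eif4ebp1 (red) and Eif4g2 (blue) stand out in all 6 KO columns.

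The scaffold of the cap complex, Eif4g1, was at 14.31, 14.35 and 14.31 in ERT2 WT and at 14.18, 14.20 and 14.18 in Cre-ERT2 WT. All 3 Cre-ERT2 libraries were below the ERT2 ones, and the change was -0.14 ± 0.021 (SE, n = 3 per group, limma adjusted p = 0.00088). The helicase gene Eif4a1 was at 14.21, 14.23 and 14.23 and then at 14.12, 14.09 and 14.12, again without overlap (-0.11 ± 0.025, limma adjusted p = 0.00991). Its exonic 31-mers were shared with other genes to 67.6%, mostly with the pseudogene Eif4a-ps4, so that reads of the pair may have been split. The cap-binding gene Eif4e itself was at 11.27, 11.24 and 11.17 in ERT2 WT and at 11.14, 11.20 and 11.17 in Cre-ERT2 WT, where the groups overlapped (-0.057 ± 0.049, limma adjusted p = 0.533). Eif4h, whose product stimulates eIF4A, fell by 0.11 (limma adjusted p = 0.0301), whereas its relative Eif4b had a change of -0.044 that did not pass (limma adjusted p = 0.255).

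Eif4ebp1, the eIF4E-binding brake, went from 9.79, 9.75 and 9.79 to 9.66, 9.66 and 9.63 in WT, a fall of 0.13 ± 0.029 (limma adjusted p = 0.0105) without overlap. Its relative Eif4ebp2 had values of 13.79, 13.81 and 13.75 and then 13.73, 13.83 and 13.75, with a change of -0.011 (limma adjusted p = 0.887). The only rise was that of Eif4ebp3, from 3.55, 3.51 and 3.51 to 3.61, 3.58 and 3.61 (0.074 ± 0.022, limma adjusted p = 0.0443). This gene was near the bottom of the table, shared 66.4% of its 31-mers with a read-through gene model, and lost the call in 11 of the 22 other settings tried.

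At the start codon, Eif1a fell most of all members, from 10.92, 10.84 and 10.84 to 10.68, 10.67 and 10.71 (-0.18 ± 0.036, limma adjusted p = 0.00685). No library of one group reached the other. The α subunit of eIF2, Eif2s1, which carries the serine that stress kinases phosphorylate, was at 12.56, 12.59 and 12.50 and then at 12.44, 12.44 and 12.48 (-0.097 ± 0.027, limma adjusted p = 0.0369). It lost the call in 11 of the 22 other settings. Eif2b3, the γ subunit of the exchange factor eIF2B, went from 9.67, 9.60 and 9.66 to 9.50, 9.47 and 9.47 (-0.16 ± 0.029, limma adjusted p = 0.00246), and its partner Eif2b5, the catalytic ε subunit, fell by 0.091 (limma adjusted p = 0.0318).

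Within eIF3, the scaffold that holds the small subunit, Eif3b, Eif3d, Eif3g and Eif3j1 fell, and 13 of the 14 genes were negative, with a median of -0.060. Eif3j1, the loosely held subunit, went from 11.04, 11.05 and 10.96 to 10.86, 10.86 and 10.88, without overlap (-0.15 ± 0.029, limma adjusted p = 0.00478). Its near copy Eif3j2 shared 94.9% of its 31-mers with other genes, nearly all with Eif3j1, and the values of the pair are uncertain for that reason.

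In elongation, Eif5a went from 14.77, 14.79 and 14.75 to 14.64, 14.61 and 14.63 (-0.15 ± 0.019, limma adjusted p = 0.000255), the lowest adjusted p of any member in this comparison. Eef1d and Eef1g, the δ and γ subunits of the exchange factor for eEF1A, fell by 0.11 (limma adjusted p = 0.00573) and 0.087 (limma adjusted p = 0.0143). The 2 factors with the highest values did not pass: Eef1a1 was at 18.44, 18.44 and 18.40 and then at 18.40, 18.41 and 18.41 (-0.024 ± 0.027, limma adjusted p = 0.648), and Eef2 was at 16.98, 16.99 and 16.88 and then at 16.90, 16.94 and 16.90 (-0.038 ± 0.027, limma adjusted p = 0.428). For both, the groups overlapped. Eef1g and Eef1a1 shared 68.1% and 72.3% of their 31-mers with other genes, mostly pseudogenes.

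**Figure D2:**
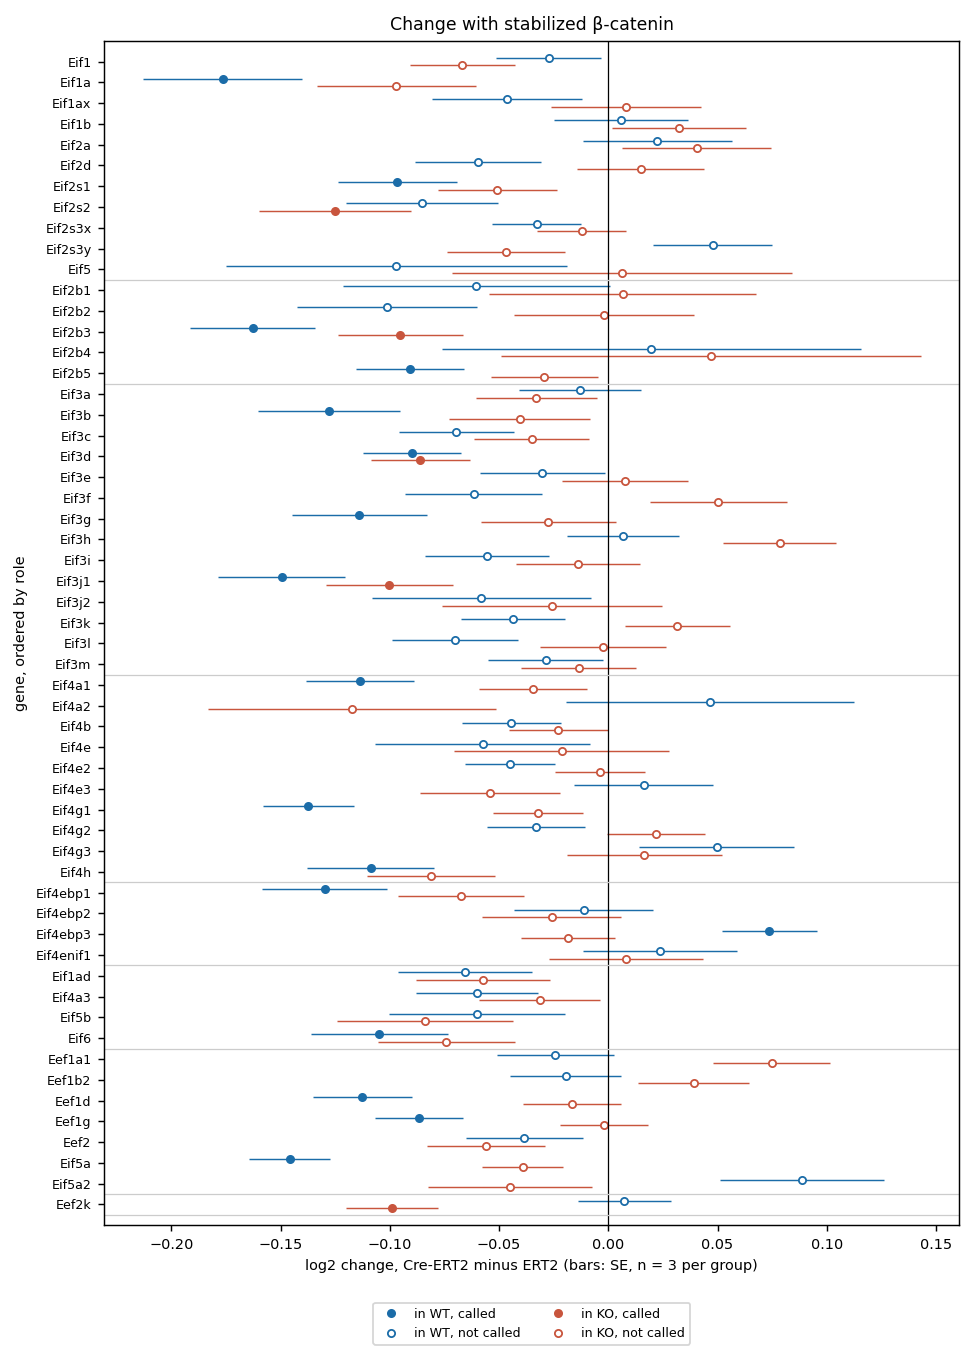
Change of each member with stabilized β-catenin (Cre-ERT2 minus ERT2, log2, horizontal axis) in WT (blue) and KO (red), with SE bars from the fit and filled points for limma adjusted p under 0.05. In WT, 16 filled points lie left of 0 and 1 right of it, and in KO 5 lie left and 0 right.

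In KO cells with stabilized β-catenin, 5 members fell, Eif2s2, Eif3j1, Eef2k, Eif2b3 and Eif3d, and 0 rose by limma, with 2 higher and 10 lower at an unadjusted limma p under 0.05. Such a p was found for 3057 of the 12151 genes, 1593 higher and 1464 lower. Of all genes, 12.6% were called, 7.27% as higher and 5.33% as lower. Among the 4218 genes between the 10th and 90th percentile of the member means, 18.4% were called, against 8.93% of the members. The median change of the members was -0.026, against -0.00041 for all genes, and 40 of 56 were negative. The groups did not overlap for 13 members, 12 of them lower, where 28.3% of all genes did not (14.5% higher and 13.9% lower). Eif2b3, Eif3d and Eif3j1 were called lower in both backgrounds, which is 17.6% of the WT calls and 60% of the only 5 KO calls. Over all genes, the calls shared in the same direction were 39.4% of the WT calls and 37.2% of the KO calls. The count rested on single libraries: it was 1 without ERT2 KO replicate 1, 2 without ERT2 KO replicate 2 or 3, and 3 without any 1 Cre-ERT2 library of either background. Without Cre-ERT2 KO replicate 1 the 3 calls were Eef2k, which fell, and Eef1a1 and Eif3h, which were higher.

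Eef2k, the kinase that phosphorylates and so slows eEF2, was at 12.68, 12.65 and 12.70 in ERT2 KO and at 12.58, 12.57 and 12.58 in Cre-ERT2 KO (-0.099 ± 0.021, limma adjusted p = 0.00834). The groups did not overlap, and Eef2k passed without each of the 12 libraries in turn. In WT it was at 12.42, 12.37 and 12.39 and then at 12.40, 12.42 and 12.38 (0.0074, limma adjusted p = 0.889). The difference between the 2 backgrounds, -0.11 ± 0.030, did not pass (limma adjusted p = 0.0712).

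Eif2s2, the β subunit of eIF2, was at 13.60, 13.58 and 13.56 in ERT2 KO and at 13.39, 13.43 and 13.55 in Cre-ERT2 KO, all lower than the ERT2 values (-0.13 ± 0.035, limma adjusted p = 0.0343). Eif3j1 went from 11.06, 11.02 and 11.11 to 10.93, 10.98 and 10.97 (-0.10 ± 0.029, limma adjusted p = 0.041). Eif2b3 went from 9.92, 9.85 and 9.84 to 9.79, 9.78 and 9.76 (-0.095 ± 0.029, limma adjusted p = 0.0482), and lost the call in 14 of the 22 other settings. Eif2s2 and Eif3j1 lost their calls in 8 and 12 of these. Of the 4 eIF4E partners and the 10 genes of cap binding and scanning, 0 were called in KO, with 1 of each at an unadjusted limma p under 0.05, both lower.

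The test of the difference itself, the β-catenin change in KO minus that in WT, called 1 member, Eif5a, where it called 4.53% of all genes, 2.71% as higher and 1.82% as lower. Eif5a was at 14.79, 14.81 and 14.77 in ERT2 KO and at 14.75, 14.77 and 14.73 in Cre-ERT2 KO, all 3 of them below the ERT2 KO values before rounding. The change was -0.039 ± 0.019 in KO (limma adjusted p = 0.215), against the -0.15 in WT. The difference was 0.11 ± 0.026 (limma adjusted p = 0.0407, n = 3 per group). It was lost in 15 of the 21 other settings, among them the omission of any 1 library except ERT2 WT replicate 3 or Cre-ERT2 KO replicate 3 (limma adjusted p up to 0.103). Over the 56 members the median difference was 0.037, against 0.0011 for all genes, 42 were positive, and 12 passed an unadjusted limma p under 0.05, 8 of them positive. Of the 12151 genes, 2101 passed it, 1119 of them positive. Eif4g1, whose change was -0.032 in KO, had a difference of 0.11 ± 0.029 that did not pass (limma adjusted p = 0.0701). For the 55 members other than Eif5a, a change that differed between the backgrounds was not shown.

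**Figure D3:**
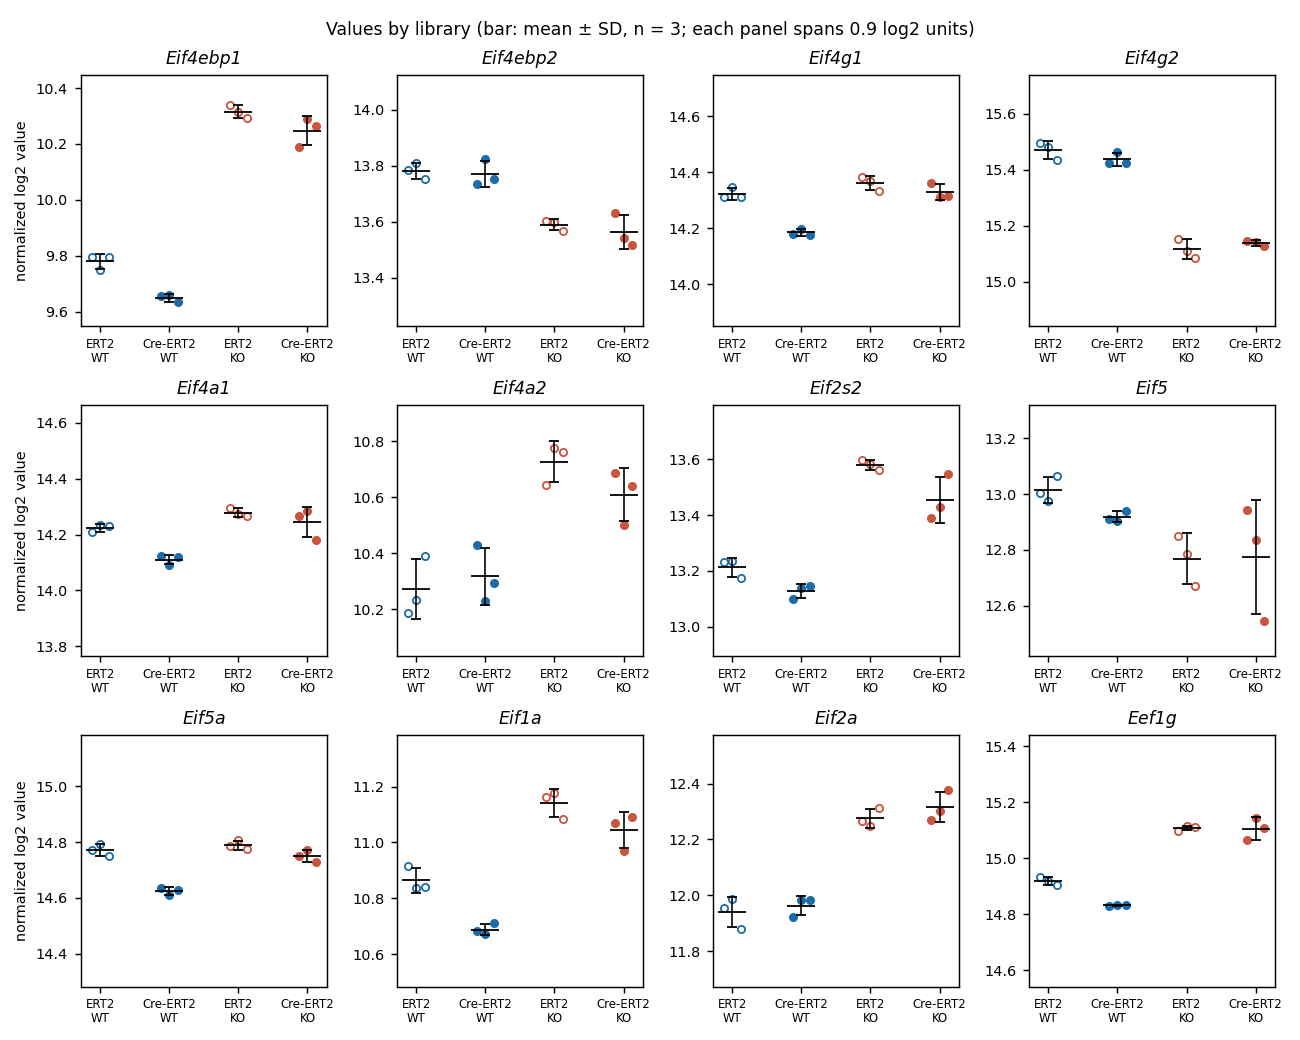
Normalized log2 values of 12 members in each library (points, open for ERT2 and filled for Cre-ERT2, blue for WT and red for KO) with the mean and SD of 3 libraries (black); each panel spans 0.9 log2 units around the gene's mean. Eif4ebp1 lies at 9.63 to 9.79 in WT and 10.19 to 10.34 in KO, Eif4g2 at 15.42 to 15.50 and 15.08 to 15.15, and Eif5a at 14.61 to 14.64 in Cre-ERT2 WT and 14.73 to 14.81 in the other groups.

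Between KO and WT libraries the members moved further, and in both directions. With ERT2, 36 were called, 21 higher and 15 lower, where 59% of all genes were called (29.8% higher and 29.3% lower) and 68.2% of the genes in the members' range of values. With Cre-ERT2, 31 were called, 24 higher and 7 lower, where 58.9% of all genes were (30.4% higher and 28.6% lower) and again 68.2% in the members' range. The members' shares of calls, 64.3% and 55.4%, were close to those of all genes and below those in their range. Genes in that range were called higher and lower in 1193 and 1682 cases with ERT2 and in 1265 and 1611 with Cre-ERT2. The median difference was 0.027 with ERT2 and 0.053 with Cre-ERT2, against 0.0016 for all genes in each. KO and WT libraries lay apart for 40 members with ERT2, 23 higher and 17 lower, where 65.5% of all genes did (33.3% higher and 32.1% lower). With Cre-ERT2 it was 37 members, 28 higher and 9 lower, where 63.6% of all genes did (32.9% higher and 30.7% lower). The split of the calls depended on the scaling. With each library centred on its median it was 16 higher and 19 lower with ERT2 and 20 and 14 with Cre-ERT2. With quantile normalization it was 27 and 11 and then 31 and 5. The comparisons have no library in common, and 22 members were called in the same direction in both, which is 61.1% of the ERT2 and 71% of the Cre-ERT2 calls, with 0 in opposite directions. Over all genes these shares were 83% and 83.2%. The summed pre-B marker share and Lck were lower and Lyz2, Rag1 and Rag2 higher in the KO groups, with Itgam slightly lower, and the part of these in the differences was not tested.

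The eIF4E brakes moved apart. Eif4ebp1 was at 10.34, 10.31 and 10.29 in ERT2 KO and 10.19, 10.29 and 10.26 in Cre-ERT2 KO, every value above every WT value, a rise of 0.54 ± 0.029 with ERT2 (limma adjusted p = 5.75e-09) and 0.60 ± 0.029 with Cre-ERT2 (limma adjusted p = 1.86e-09). Eif4ebp2 was at 13.60, 13.60 and 13.57 and at 13.63, 13.54 and 13.52 in KO, below every WT value, a fall of 0.19 ± 0.032 (limma adjusted p = 0.000188) and 0.21 ± 0.032 (limma adjusted p = 0.000101). The log2 ratio of Eif4ebp1 to Eif4ebp2 rose from -3.99, -4.06 and -3.96 to -3.26, -3.29 and -3.27 with ERT2, and from -4.08, -4.16 and -4.12 to -3.44, -3.25 and -3.26 with Cre-ERT2. These shifts of 0.73 and 0.81, which a shift of a whole library leaves as they are, had the smallest p that 3 against 3 libraries allow in an exact two-sided permutation test, 0.1.

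Eif4g2, a relative of eIF4G that lacks the eIF4E-binding part and serves cap-independent initiation, had the largest fall of the members in both. It was at 15.50, 15.48 and 15.44 in ERT2 WT and 15.15, 15.11 and 15.08 in ERT2 KO, and at 15.42, 15.46 and 15.42 in Cre-ERT2 WT and 15.15, 15.14 and 15.13 in Cre-ERT2 KO. The differences were -0.35 ± 0.022 (limma adjusted p = 2.89e-08) and -0.30 ± 0.022 (limma adjusted p = 1.39e-07), and no KO value reached a WT value. Eif4b, which stimulates the helicase, was at 14.27, 14.32 and 14.23 in ERT2 WT and 14.58, 14.57 and 14.62 in ERT2 KO. With Cre-ERT2 it was at 14.21, 14.25 and 14.22 in WT and 14.57, 14.56 and 14.57 in KO. The rises were 0.32 and 0.34 ± 0.023 (limma adjusted p = 8.95e-08 and 4.58e-08). Eif4g1 did not pass with ERT2 (0.039, limma adjusted p = 0.123) and was higher with Cre-ERT2, at 14.36, 14.31 and 14.32 against 14.18, 14.20 and 14.18 (0.14 ± 0.021, limma adjusted p = 5.95e-05).

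The helicase paralogues differed in size of change. Eif4a2 was at 10.19, 10.23 and 10.39 in ERT2 WT and 10.64, 10.78 and 10.76 in ERT2 KO (0.46 ± 0.066, limma adjusted p = 6.26e-05), and at 10.43, 10.23 and 10.29 against 10.69, 10.50 and 10.64 with Cre-ERT2 (0.29 ± 0.066, limma adjusted p = 0.00203). Eif4a1 was at 14.30, 14.27 and 14.27 in ERT2 KO (0.054, limma adjusted p = 0.0805) and 14.27, 14.28 and 14.18 in Cre-ERT2 KO (0.13 ± 0.025, limma adjusted p = 0.000509). The log2 ratio of Eif4a1 to Eif4a2 was lower in KO by 0.40 with ERT2 (exact permutation p = 0.1, the smallest possible) and by 0.16 with Cre-ERT2 (exact permutation p = 0.2), where single libraries overlapped. Eif4e was at 11.36, 11.30 and 11.35 in ERT2 KO (0.11, limma adjusted p = 0.0713) and at 11.23, 11.26 and 11.45 in Cre-ERT2 KO (0.15 ± 0.049, limma adjusted p = 0.0215), the last value standing above its mates. The Cre-ERT2 call was lost in 6 of the 22 other settings, with limma adjusted p up to 0.0742, among them the omission of Cre-ERT2 KO replicate 3, which left a difference of 0.078, and of Cre-ERT2 WT replicate 1 or 3.

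Of the 11 start codon and ternary complex genes, 10 were called with ERT2, 6 higher and 4 lower, and 8 with Cre-ERT2, 5 higher and 3 lower, against the 59% and 58.9% of all genes called. Eif2s2 was at 13.23, 13.24 and 13.17 in ERT2 WT and 13.10, 13.14 and 13.15 in Cre-ERT2 WT, below all KO values given above, with rises of 0.37 ± 0.035 (limma adjusted p = 1.36e-06) and 0.33 ± 0.035 (limma adjusted p = 3.87e-06). The X-linked γ subunit gene Eif2s3x rose by 0.18 and 0.20 ± 0.020 (limma adjusted p = 7.43e-06 and 2.63e-06), whereas the α subunit gene Eif2s1, at 12.55, 12.55 and 12.57 in ERT2 KO and 12.46, 12.53 and 12.54 in Cre-ERT2 KO, passed in neither (0.0075 and 0.053, limma adjusted p = 0.831 and 0.111). The 3 subunits of eIF2 were therefore not called alike. Eif2a, an unrelated factor that can deliver initiator tRNA and is not a subunit of eIF2, went from 11.96, 11.99 and 11.88 to 12.27, 12.25 and 12.31 with ERT2 and from 11.92, 11.98 and 11.98 to 12.27, 12.30 and 12.38 with Cre-ERT2. It rose by 0.33 and 0.35 ± 0.034 (limma adjusted p = 2.72e-06 and 1.6e-06).

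The eIF1A paralogues were called in opposite directions. Eif1a was at 11.16, 11.18 and 11.08 in ERT2 KO and 11.07, 10.97 and 11.09 in Cre-ERT2 KO, above all WT values, with rises of 0.28 and 0.36 ± 0.036 (limma adjusted p = 2.83e-05 and 2.73e-06). Eif1ax was at 12.37, 12.31 and 12.24 in ERT2 WT, 12.26, 12.28 and 12.24 in Cre-ERT2 WT, 12.20, 12.17 and 12.10 in ERT2 KO and 12.20, 12.17 and 12.13 in Cre-ERT2 KO, with falls of 0.15 and 0.096 ± 0.034 (limma adjusted p = 0.00232 and 0.0302). The second of these calls was lost in 6 of the 22 other settings. The log2 ratio of Eif1a to Eif1ax rose by 0.43 and 0.45 (exact permutation p = 0.1 for each, the smallest possible).

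Eif1, which guards the fidelity of start codon choice, was at 13.58, 13.58 and 13.56 in ERT2 WT against 13.43, 13.45 and 13.48 in ERT2 KO, and at 13.55, 13.56 and 13.53 in Cre-ERT2 WT against 13.35, 13.44 and 13.37 in Cre-ERT2 KO. It fell by 0.12 and 0.16 ± 0.024 (limma adjusted p = 0.000792 and 8.19e-05). Its relative Eif1b was at 9.71, 9.73 and 9.80 and 9.79, 9.73 and 9.74 in the WT groups and at 9.56, 9.60 and 9.59 and 9.60, 9.65 and 9.60 in the KO groups (-0.16 and -0.14 ± 0.031, limma adjusted p = 0.00056 and 0.00205). For both genes all KO values were below all WT values. Eif5, the GTPase-activating partner of eIF2, was at 13.00, 12.98 and 13.07 in ERT2 WT and 12.85, 12.79 and 12.67 in ERT2 KO (-0.25 ± 0.078, limma adjusted p = 0.016), a call lost without ERT2 WT replicate 3 or ERT2 KO replicate 3 (limma adjusted p up to 0.0706). In Cre-ERT2 KO it was at 12.94, 12.83 and 12.55, against 12.91, 12.90 and 12.94 in Cre-ERT2 WT (-0.14, limma adjusted p = 0.134), and the groups overlapped.

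Of eIF2B, Eif2b3 rose in KO by 0.23 and 0.29 ± 0.029 (limma adjusted p = 1.91e-05 and 1.66e-06), from the WT and KO values given above, which did not overlap. Eif2b2, the β subunit, fell with ERT2, from 11.09, 11.04 and 10.99 to 10.86, 10.95 and 10.81 (-0.17 ± 0.041, limma adjusted p = 0.00399), and was at 10.96, 10.94 and 10.92 and then 10.83, 10.85 and 10.95 with Cre-ERT2, where it did not pass (limma adjusted p = 0.19). Of the 14 eIF3 genes, Eif3c, Eif3d and Eif3i rose in both and Eif3g and Eif3j1 with Cre-ERT2, while Eif3b, Eif3f, Eif3h and Eif3k were called lower with ERT2 and not with Cre-ERT2. The eIF3 values spanned -0.16 to 0.15 over both comparisons.

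Of the 7 elongation genes, 4 rose with ERT2 (57.1%) and 5 with Cre-ERT2 (71.4%), and 0 fell, where 59% and 58.9% of all genes were called in either direction. Eef1g was at 14.93, 14.92 and 14.90 in ERT2 WT, 14.83 in each Cre-ERT2 WT library, 15.10, 15.12 and 15.11 in ERT2 KO and 15.06, 15.15 and 15.11 in Cre-ERT2 KO, with rises of 0.19 and 0.27 ± 0.020 (limma adjusted p = 4.11e-06 and 1.2e-07). Eif5a2, the paralogue of Eif5a, was at 8.53, 8.49 and 8.50 in ERT2 WT and 8.88, 8.81 and 8.84 in ERT2 KO (0.33 ± 0.038, limma adjusted p = 6.69e-06), and at 8.63, 8.51 and 8.66 against 8.81, 8.77 and 8.81 with Cre-ERT2 (0.20 ± 0.038, limma adjusted p = 0.000519). Eif5a was not called with ERT2 (0.018, limma adjusted p = 0.437) and rose by 0.12 with Cre-ERT2 (limma adjusted p = 8.51e-05), where its WT values were low. The log2 ratio of Eif5a to Eif5a2 was 6.24, 6.30 and 6.24 in ERT2 WT and between 5.90 and 6.10 in the other 9 libraries, so that ERT2 WT stood above the other groups. Against ERT2 WT it was lower by 0.23 in Cre-ERT2 WT and by 0.32 in ERT2 KO (exact permutation p = 0.1 for each, the smallest possible).

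Eef1a1 was at 18.48, 18.49 and 18.52 in ERT2 KO (0.068, limma adjusted p = 0.0435) and at 18.50, 18.60 and 18.62 in Cre-ERT2 KO (0.17 ± 0.027, limma adjusted p = 0.000146). It was called in neither after quantile normalization. That setting gives a rank the same value in every library, so it cannot decide whether a gene of so high a value differs. With ERT2 the call was lost in 15 of the 22 other settings, including the omission of any 1 ERT2 or any 1 Cre-ERT2 WT library. Eef2 was at 17.01, 17.02 and 17.03 in ERT2 KO (0.070, limma adjusted p = 0.041, lost in 12 of the 22 other settings) and at 16.96, 16.99 and 16.94 in Cre-ERT2 KO (0.052, limma adjusted p = 0.116). Its kinase gene Eef2k rose by 0.28 and 0.18 ± 0.021 (limma adjusted p = 1.36e-07 and 1.1e-05). Over 10 paralogue pairs and 4 comparisons of groups, 22 of the 40 log2 ratios had groups that did not overlap. Their exact permutation p of 0.1 becomes 0.182 when adjusted over the 40. With β-catenin in WT and KO it was 7 and 2 of the 10 pairs, where 31.1% and 28.3% of all single genes did not overlap. Between KO and WT it was 7 with ERT2 and 6 with Cre-ERT2, where 65.5% and 63.6% did not. No share was computed for other pairs of genes, so the count is not a result about paralogues.

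**Figure D4:**
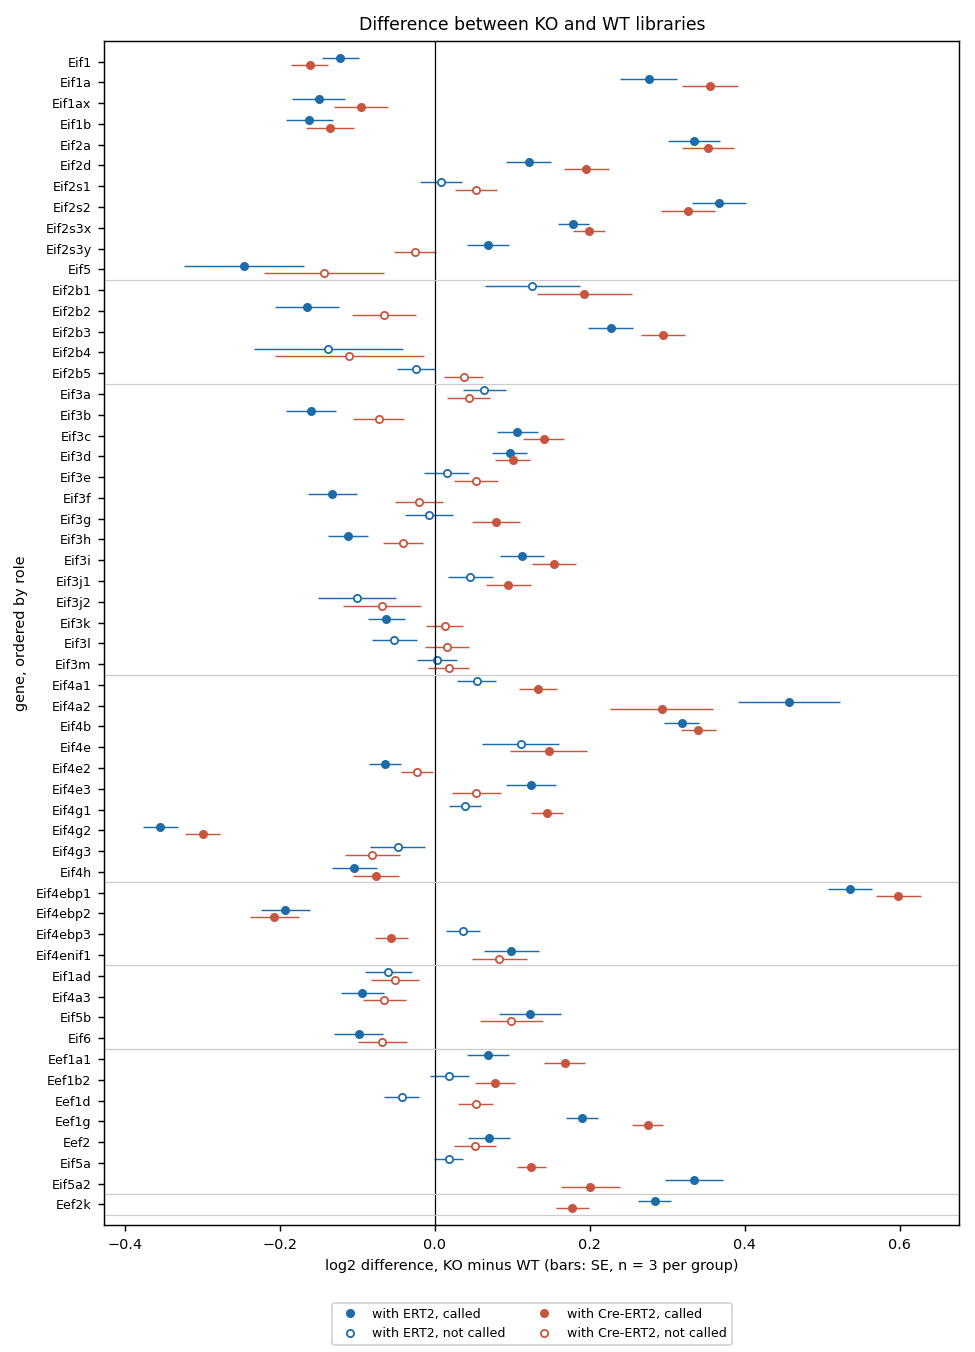
Difference of each member between KO and WT libraries (log2, horizontal axis) with ERT2 (blue) and Cre-ERT2 (red), with SE bars from the fit and filled points for limma adjusted p under 0.05. Eif4ebp1 lies farthest right, at 0.54 and 0.60, and Eif4g2 farthest left, at -0.35 and -0.30.

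A total of 8 of the 56 members were called in none of the 5 comparisons, namely Eif1ad, Eif2b4, Eif3a, Eif3e, Eif3j2, Eif3l, Eif3m and Eif4g3. Eif2b4 was the most scattered of them, at 8.88, 9.16 and 9.30 in Cre-ERT2 WT. Over the members, 6 shared more than 50% and 21 more than 10% of their exonic 31-mers with other genes, and the median was 4.00%.

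Among the genes that act on these factors, the eIF2 kinases and the stress response that eIF2 phosphorylation starts were called in 0 of 14 with β-catenin in WT (3 at an unadjusted limma p under 0.05, all lower). With β-catenin in KO, 6 fell and 2 rose: Atf4, the transcription factor translated when eIF2 is phosphorylated, fell by 0.20 (limma adjusted p = 0.00608) and its target Asns, asparagine synthetase, by 0.30 (limma adjusted p = 3.06e-05), while the kinase gene Eif2ak3 rose by 0.14 (limma adjusted p = 0.00466). Of all genes, 11.9% were called with β-catenin in WT and 12.6% in KO (7.27% higher and 5.33% lower). In WT, 3030 of the 12151 genes had an unadjusted limma p under 0.05, 1585 of them lower. Between KO and WT all 14 were called with ERT2, 12 higher, where 59% of all genes were called (29.8% higher). With Cre-ERT2, 12 were called, 10 higher, where 58.9% of all genes were called (30.4% higher). The amino acid sensor Eif2ak4 rose by 0.66 and 0.68 (limma adjusted p = 1.29e-09 and 9.24e-10), Trib3 by 0.93 and 0.77 (limma adjusted p = 3.18e-10 and 2.02e-09) and Atf4 by 0.48 and 0.38 (limma adjusted p = 5.61e-07 and 4.41e-06), whereas the heme sensor Eif2ak1 fell by 0.23 and 0.16 (limma adjusted p = 7.21e-07 and 1.61e-05). The difference of the β-catenin change was called for Eif2ak3 (0.17, limma adjusted p = 0.0276), Asns (-0.26, limma adjusted p = 0.00447) and Ddit3 (-0.17, limma adjusted p = 0.023). Over all genes it was called for 4.53%.

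Of 18 genes of mTORC1 and MNK control, 8 were called with β-catenin in WT (5 higher), 5 in KO (3 higher), 9 between KO and WT with ERT2 (5 higher) and 10 with Cre-ERT2 (5 higher). Over all genes the calls were 11.9%, 12.6%, 59% and 58.9%, so that the counts between KO and WT were not above the background. The kinase gene Mtor rose by 0.31 in WT and 0.29 in KO (limma adjusted p = 5.72e-05 and 9.57e-05), and Larp1, which binds the 5′ ends of ribosomal protein and elongation factor mRNAs, fell by 0.18 and 0.17 (limma adjusted p = 0.000513 and 0.000578). Deptor, an inhibitor of mTOR, fell by 0.20 and 0.17 with β-catenin (limma adjusted p = 0.003 and 0.00713) and rose by 1.11 and 1.14 in KO (limma adjusted p = 3.99e-11 and 3.06e-11). Pdcd4, an inhibitor of eIF4A, rose by 0.17 with β-catenin in WT (limma adjusted p = 0.0224). Differences of the β-catenin change were called for 0 of the 18 by limma, with 0 at an unadjusted p under 0.05.

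Of 9 enzymes that make hypusine on eIF5A or diphthamide on eEF2, 0 were called with β-catenin in either background, with 1 at an unadjusted limma p under 0.05 in each. Between KO and WT, 5 were called with ERT2 (4 higher) and 6 with Cre-ERT2 (3 higher), among them Dph1, which starts diphthamide synthesis (0.17 and 0.14, limma adjusted p = 0.000663 and 0.00397). Of 10 mitochondrial translation factors, 2 fell with β-catenin in WT and 1 in KO, and 6 and 7 rose in KO with 0 falling. Tufm, the mitochondrial counterpart of eEF1A, was among all of these (-0.089, -0.073, 0.19 and 0.21, limma adjusted p = 0.0137, 0.0355, 3.82e-06 and 1.82e-06). Of 8 termination, recycling and rescue genes, 0 were called with β-catenin in WT (4 at an unadjusted limma p under 0.05, all lower), 1 fell in KO, and 4 were called between KO and WT in each, 2 higher with ERT2 and 3 higher with Cre-ERT2. Over all genes the calls were 11.9% and 12.6% with β-catenin in WT and KO, and 3030 and 3057 of the 12151 genes had an unadjusted limma p under 0.05. Between KO and WT they were 59% with ERT2 and 58.9% with Cre-ERT2. Over both directions together, the calls of these lists between KO and WT were near those, at 55.6% and 66.7% for the hypusine and diphthamide enzymes. They were 60% and 70% for the mitochondrial factors and 50% in each for the termination genes. The calls of the mitochondrial factors were all higher, where 29.8% and 30.4% of all genes were called higher and 29.3% and 28.6% lower.

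Cytosolic aminoacyl-tRNA synthetases and ribosomal proteins were set beside the members by the same counts. With β-catenin, 6 of 20 synthetases fell in WT with 0 rising, and 10 fell and 1 rose in KO, with medians of -0.068 and -0.13. Of 84 ribosomal protein genes, 4 fell and 0 rose in WT and 0 fell and 2 rose in KO, with medians of -0.040 and 0.035, beside -0.058 and -0.026 for the members. The difference of the β-catenin change was called by limma for 0 of the 84 ribosomal protein genes (26 at an unadjusted p under 0.05, all positive) and for 1 of the 20 synthetases (Sars, -0.19, limma adjusted p = 0.0442). An unadjusted limma p under 0.05 was found for 2101 of the 12151 genes there, 1119 of them positive. Between KO and WT with ERT2, 15 synthetases rose and 1 fell, and 24 ribosomal protein genes rose and 15 fell. With Cre-ERT2 it was 13 and 1, and 45 and 5. Over all genes, 11.9% and 12.6% were called with β-catenin in WT and KO, and 4.53% for the difference of the change. Between KO and WT it was 59% with ERT2 and 58.9% with Cre-ERT2. In the same 4 comparisons of groups, 30%, 55%, 80% and 70% of the synthetases were called. For the ribosomal protein genes it was 4.76%, 2.38%, 46.4% and 59.5%, so that their totals over both directions were not above the background or close to it. By direction the Cre-ERT2 calls were uneven, with 45 of the 84 higher and 5 lower. Of all genes, 30.4% were higher and 28.6% lower there. Myc, for which many members are known targets, was lower with β-catenin by 0.62 in WT and 0.31 in KO and higher in KO by 1.10 and 1.41 (limma adjusted p = 6.69e-10, 3.11e-07, 1.55e-13 and 1.93e-14), and its part in the changes of the members was not tested.

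**Figure D5:**
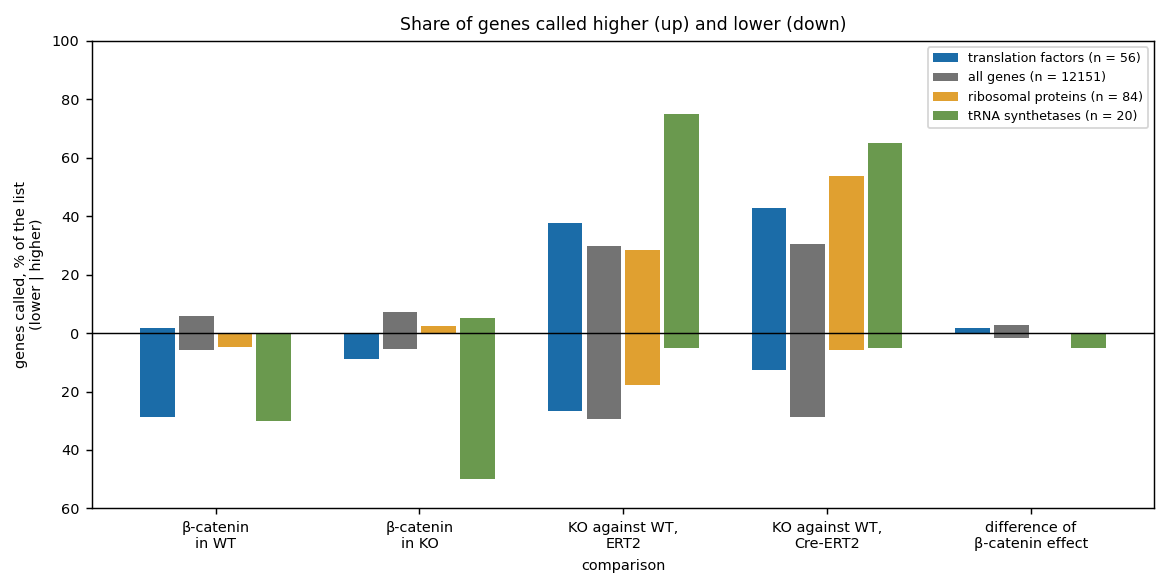
Share of genes called higher (upward bars) and lower (downward bars, both as % of the list) in each comparison (horizontal axis), for the 56 members, all 12151 genes, 84 ribosomal proteins and 20 tRNA synthetases. With β-catenin in WT the member bar reaches 16 of 56 downward and 1 of 56 upward, while all genes are nearly even, at 5.95% and 5.93%.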

How the data were processed

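Poly(A) RNA was made into libraries with a KAPA stranded kit from 280 ng of total RNA, with 10 cycles of amplification. The submitters' processing notes name Salmon 1.4.0, STAR 2.7.6 and DESeq2 1.30.1 with mm10/GRCm38. The authors deposited normalized log2 values per gene for 12 libraries in 4 groups of 3, and the transformation behind the log2 scale is not given in the sources used here. The table holds no counts, so that neither depth nor counting error can be given.

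All 12151 genes were fitted with limma 3.58.1 (R 4.3.3), 4 group means, eBayes with a trend and no covariate. P-values were adjusted over all genes (Benjamini-Hochberg), and adjusted p under 0.05 was called. The fit was tested on simulated data. Paralogue log2 ratios were compared by an exact two-sided permutation test. Values of every library were given for Eif4e, Eif4ebp1, Eif4a1, Eif4g1, Eif2s1, Eif5a, Eef1a1, Eef2, the 4 largest called rises and falls per comparison and paralogues called oppositely, and other genes named with values (among them Eef1g, Eif2b4 and Eif2s3x) were chosen after their values were seen. Members and lists were chosen with earlier results of these data known. The other settings (22 for each comparison of groups, 21 for the difference of the changes, which needs all groups) were median centring, quantile normalization, a pseudocount of 1 or 32, a mean above 8, no trend, a robust prior, only the groups compared, the replicate number as a block, adjusted p under 0.01 and leaving out each library. Shared sequence was measured as 31-mers of 1 coding transcript per gene found in other genes of GENCODE vM21.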

Additional observations from a re-analysis of the deposited data

Results flagged for a closer look

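The β-catenin change of Eif5a differed between the backgrounds by a test of the difference itself, KO minus WT being 0.107 (SE 0.026, limma adjusted p = 0.0407), with values of -0.039 in KO and -0.15 in WT. In both backgrounds all 3 Cre-ERT2 libraries were below all 3 ERT2 libraries. The call was lost in 15 of 21 other settings. Groups of 3 libraries are too small for the check of single outlying samples.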

How the results depend on the processing

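With β-catenin in WT, the count of members called was 7 at an adjusted p under 0.01 and 9 to 18 when single libraries were left out. In KO it was 1 when only the groups compared were fitted, 1 at an adjusted p under 0.01 and 1 to 5 when single libraries were left out. For the difference of the β-catenin change it was 0 with quantile normalization, a pseudocount of 32, a mean above 8 or an adjusted p under 0.01, and 0 to 2 without single libraries. Fitting the replicate number as a block gave 15 and 3 calls with β-catenin in WT and KO, 35 and 32 between KO and WT with ERT2 and Cre-ERT2, and 1 for the difference, Eif4ebp3 in place of Eif5a. A pairing of the libraries by number was not evident. Same-numbered libraries of different groups had deviations correlated at -0.09 to 0.31 (2 of 18 above 0.1), others at -0.35 to 0.36. Of the 12 libraries, 6 correlated best with their own number. With 3 libraries per group this check cannot exclude a pairing.

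The median difference between KO and WT was -0.0047 with ERT2 and 0.020 with Cre-ERT2 after median centring, 0.058 and 0.086 after quantile normalization, and 0.047 to 0.073 with Cre-ERT2 without single libraries. Quantile normalization also moved the ratio of Eif5a to Eif5a2 with ERT2 to -0.23, and that of Eif1 to Eif1b to -0.13 with β-catenin in KO and 0.13 between KO and WT with ERT2. Directions turned, among values not called, for Eif4e with β-catenin in KO (-0.090 to 0.020 without single libraries), for Eif2s1 between KO and WT with ERT2 (-0.025 with centring, -0.016 to 0.027 without single libraries), for Eif5a there (-0.014 with centring), and, in the difference of the β-catenin change, for Eif4e (-0.032 to 0.078 without single libraries) and Eef2 (0.042 with quantile normalization, -0.039 to 0.018 without single libraries). Eef1a1, called with ERT2, turned to -0.079 with quantile normalization, which cannot decide on a gene of so high a value because it fixes the value of each rank. The cause of these shifts was not tested. Depth behind the values is unknown, so that weak calls in members of low level cannot be weighed by counts.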
